A study of Mus musculus with 6 samples.

Results

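DISC1 is a scaffold protein without known enzyme activity that gathers other proteins at the centrosome, along microtubules, at mitochondria and at synapses. Its partners hold the dynein motor to its cargo, break down cyclic AMP, guide outgrowing processes, or act in the AKT and Wnt/β-catenin pathways. Described here are 10 genes taken by name, namely Disc1, its chromosomal neighbour Tsnax, and 8 genes of proteins reported to bind DISC1: Ndel1, Nde1, Pafah1b1, Pde4b, Fez1, Dixdc1, Ccdc88a and Tnik. All 10 were found among the 18211 genes measured, and all 10 passed the filter on low values, as did 13792 genes in all. The rule that chose them uses names and no measured value, but it was set with earlier results of these data known.

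RNA was sequenced from oligodendrocyte precursor cells (OPCs), glia from which the myelinating oligodendrocytes arise. The 3 DISC1-Δ3 libraries came from NG2-CreERTM: DISC1 exon3 fl/+ mice, in which a tamoxifen-dependent Cre recombinase under the promoter of NG2 (Cspg4) can remove exon 3 from 1 of the 2 Disc1 alleles. NG2 marks OPCs and is also made by pericytes. The 3 wildtype libraries came from mice without the CreERT transgene. All mice were C57BL/6, all received tamoxifen by gavage on 4 consecutive days, P4 to P7 (P, postnatal day), and OPCs were isolated from them at P7 by immunopanning for PDGFRα, with RNA taken directly after isolation. The labels do not say whether the libraries of a group came from separate animals, so p-values measure the spread between these libraries, which may be technical.

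Library totals ran from 13716631 to 16417232 counts. The marker genes of the labelled cell type were present, but microglial transcripts were far more abundant. The summed RPKM (reads per kilobase of transcript, scaled to the library total) of 12 OPC markers was 591 to 614 in wildtype against 760 to 785 in DISC1-Δ3 libraries, with Pdgfra at 17.16 to 18.06 and 24.96 to 26.79. The sum of 12 microglial markers was 15862 to 16189 and 11089 to 11530, with Cx3cr1 at 464 to 493 and 374 to 399, and no defining marker of any list was at 0 in every library. By edgeR's quasi-likelihood test at an adjusted p under 0.05, 20.4% of all tested genes were higher in DISC1-Δ3 libraries and 19.5% lower. Of the tested markers, 12 of 12 microglial, 6 of 9 mature oligodendrocyte and 6 of 11 astrocyte genes were lower, as were 2 of 12 OPC genes (Ptprz1 and Tnr). Higher were 8 of 12 OPC, 10 of 12 neuronal, 5 of 6 pericyte, 4 of 7 endothelial and 2 of 11 astrocyte genes. In bulk RNA, fewer cells of a type and less RNA per cell cannot be told apart. Of 4 Y-linked genes, which were looked at after other results were seen, Ddx3y read 3.52 to 3.99 RPKM in wildtype and 0.84 to 0.97 in DISC1-Δ3 libraries, and the other 3 did not overlap between the groups either, so the sex of the animals and the genotype cannot be told apart. The part of cell composition and sex in the results on the 10 genes was not tested. DISC1-Δ3 replicate 3 stood apart from its group, with more reads on long transcripts. For the 10 genes, values that rest on it are given with and without it.

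Disc1 lies at chr8:125054195-125261858 on the plus strand of mm10. In GENCODE release M21, the transcript Disc1-206 has 14 exons and 2860 bases, of which exon 3, at chr8:125090373-125090442, takes 70. All 9 annotated Disc1 transcripts hold this exon. It is shown here because it is the floxed exon, and its capitals mark the forward primer with which the study measured full-length Disc1. The second sequence joins the last 30 bases of exon 2 to the first 30 bases of exon 4, as they meet once exon 3 is gone, and its capitals mark the forward primer for DISC1-Δ3.
Disc1 exon 3: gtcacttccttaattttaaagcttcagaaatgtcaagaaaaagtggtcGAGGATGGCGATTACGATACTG
Disc1 exon 2 to exon 4 junction: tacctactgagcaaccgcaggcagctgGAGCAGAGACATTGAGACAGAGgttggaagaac
Of the 22 bases of the second primer, 3 lie in exon 2 and 19 in exon 4, so that its whole match exists only across the junction.

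The length of exon 3 leaves a remainder of 1 on division by 3. In the annotated transcript the reading frame runs over 852 codons before the stop. Read from the same start without exon 3, the frame keeps the 350 whole codons before the deletion and meets a stop after a further 3, at 353 codons. Exon 3 makes up 2.45% of Disc1-206 and 0.95% of the length of 7351 bases that the deposited RPKM of Disc1 implies. The counts are given per gene and do not separate transcripts with exon 3 from those without it. They therefore cannot show the loss of exon 3, and the total level of Disc1 given below does not measure it. The study reported raised DISC1-Δ3 mRNA in isolated OPCs, and unchanged full-length Disc1 in brain tissue.

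**Figure D1:**
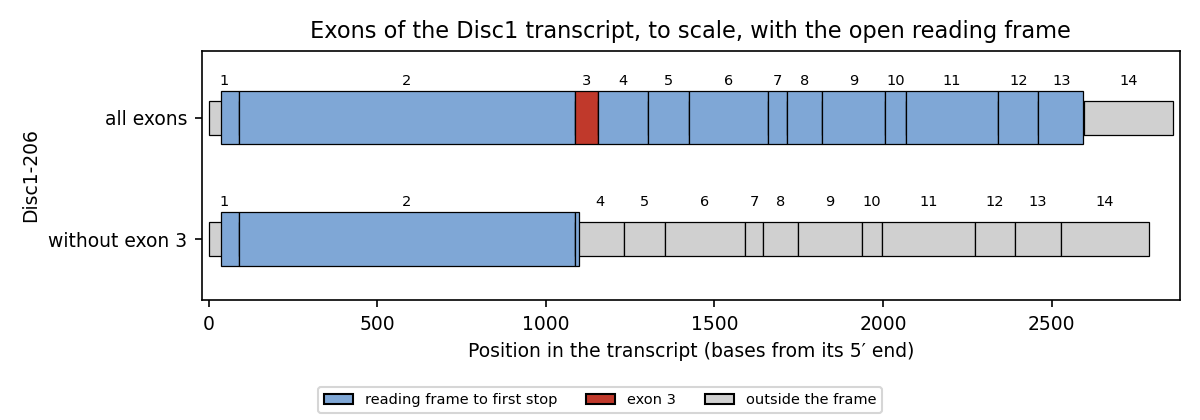
Exons of Disc1-206 drawn to scale along the transcript in bases, with exon numbers above the boxes, for the whole transcript and for the same transcript without exon 3. Blue marks the frame from the annotated start to its first stop, 852 codons in the upper row and 353 in the lower, red marks exon 3 and gray marks bases outside the frame.

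Disc1 was lower in the DISC1-Δ3 libraries. Its RPKM was 3.51, 3.34 and 3.81 in wildtype replicates 1 to 3, from 350, 406 and 455 reads, and 2.86, 2.44 and 2.85 in DISC1-Δ3 replicates 1 to 3, from 295, 292 and 349 reads. Every DISC1-Δ3 library lay below every wildtype library. The fitted log2 fold change was -0.45 (SE 0.088, 95% interval -0.64 to -0.27, adjusted p = 0.000528 by edgeR's quasi-likelihood test), and the level fell by 26.9%. With 1 library left out at a time the log2 fold change ranged from -0.51 to -0.40 and stayed past the threshold. The annotation places the antisense gene Gm16237 within Disc1, and the library protocol does not describe a step that marks strand, so reads from both could not be told apart.

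Over all 13792 tested genes, 39.9% passed the threshold, 20.4% as higher and 19.5% as lower in DISC1-Δ3 libraries. Of the 10 genes, 3 passed as higher (Ndel1, Fez1 and Tsnax) and 1 as lower (Disc1), so that 4 of 10 were called, near the share among all genes. The median log2 fold change of the 10 was -0.01, and that of all tested genes 0.01. RPKM values without overlap between the groups were seen for 5 of the 10, against 52.0% of all tested genes (35.9% with DISC1-Δ3 above wildtype and 16.1% below). Deposited RPKM carries no scaling between libraries beyond their totals, which places the median of all genes at 0.09 on the log2 scale rather than 0.01, and with library totals alone 69.2% of all calls were higher instead of 51.1%. A small rise in RPKM can therefore come with a fitted fold change near 0, as for Nde1.

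The levels of the 10 genes spanned 38.8-fold in wildtype libraries. By mean RPKM their order was Fez1, Nde1, Tsnax, Ndel1, Pafah1b1, Pde4b, Ccdc88a, Tnik, Disc1 and Dixdc1, so that Disc1 was among the 3 lowest. The library ranges of neighbours in this order overlapped for Tsnax and Ndel1 and for Tnik and Disc1. In DISC1-Δ3 libraries the span was 52.1-fold, and Ndel1 stood above Tsnax. There the ranges of neighbours overlapped for Pafah1b1 and Pde4b, for Ccdc88a and Tnik, and for Disc1 with Dixdc1 instead of Tnik.

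**Figure D2:**
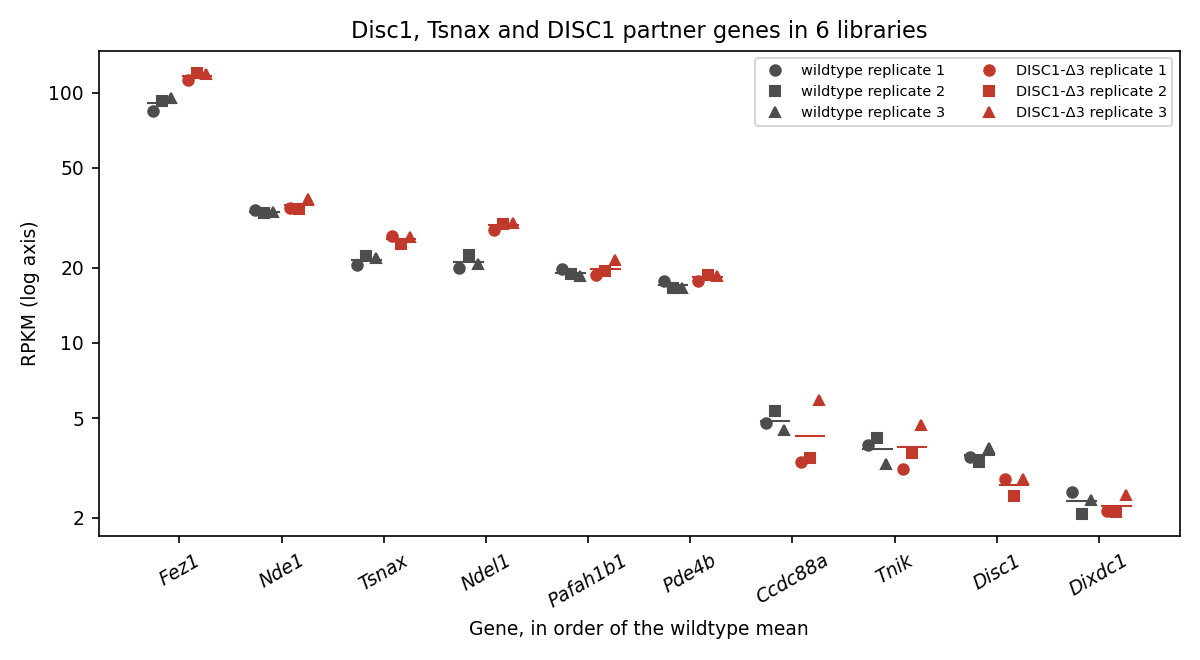
RPKM of the 10 genes on a log axis, one symbol per library, wildtype in gray and DISC1-Δ3 in red, with a line at the mean of the 3 libraries of a group. The groups are apart for Fez1, Nde1, Tsnax, Ndel1 and Disc1, and for Ccdc88a and Tnik the highest symbol is DISC1-Δ3 replicate 3, at 5.94 and 4.72 RPKM.

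Tsnax (chr8:125012997-125034192, plus strand) encodes translin-associated factor X, the partner of translin in an RNA-cleaving complex, and ends 20002 bases before Disc1 begins at these coordinates (14.6 kb in the RefSeq gene table, where Disc1 starts earlier). Its RPKM was 20.54, 22.15 and 21.85 in wildtype against 26.75, 24.85 and 26.61 in DISC1-Δ3 libraries, with no overlap. The log2 fold change was 0.19 (SE 0.062, adjusted p = 0.0194, edgeR). This call was lost without wildtype replicate 1, at 0.16 (adjusted p = 0.0842, edgeR), and without DISC1-Δ3 replicate 1, at 0.15 (adjusted p = 0.105, edgeR). Tsn, which encodes translin itself, was at 0.12 on the log2 scale (adjusted p = 0.0815, edgeR). Within each library the RPKM of Disc1 was 0.151 to 0.174 of that of Tsnax in wildtype and 0.0982 to 0.107 in DISC1-Δ3 libraries. The difference in the log2 ratio was -0.67, and this ratio does not depend on the scaling between libraries.

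Ndel1, Nde1 and Pafah1b1 form one functional group. NDE1 and NDEL1 are close relatives that bind the dynein motor together with LIS1, the product of Pafah1b1, and the 3 proteins act in nuclear movement, cell division and neuronal migration. Ndel1 rose, while the other 2 did not pass the threshold.

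Ndel1 (chr11:68821434-68871858, minus strand) read 20, 22.35 and 20.69 RPKM in wildtype and 28.26, 29.98 and 30.11 in DISC1-Δ3 libraries. The lowest DISC1-Δ3 library was above the highest wildtype library. The fold was 1.33 (95% interval 1.21 to 1.45, log2 fold change 0.41, SE 0.063, adjusted p = 5.49e-05, edgeR), the largest rise of the 10 genes.

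Nde1 (chr16:14163275-14192928, plus strand) read 33.81, 33.14 and 33.44 RPKM in wildtype and 34.71, 34.34 and 37.68 in DISC1-Δ3 libraries. These values do not overlap, but the fitted log2 fold change was 0.01 (95% interval -0.11 to 0.12, adjusted p = 0.941, edgeR), and its sign turned under median-of-ratios scaling, at -0.0014. Nde1 overlaps Marf1 on the opposite strand, and Marf1 was at -0.25 on the log2 scale (adjusted p = 0.0787, edgeR). In the wildtype libraries Ndel1 made up 38.6% ± 1.58 (SD, n = 3) of the summed RPKM of the pair, and 45.3% ± 1.16 (SD, n = 3) in DISC1-Δ3 libraries.

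Pafah1b1 (chr11:74673949-74724670, minus strand) read 19.74, 18.8 and 18.43 RPKM in wildtype and 18.68, 19.43 and 21.36 in DISC1-Δ3 libraries, with overlap. Its log2 fold change was -0.02 (95% interval -0.13 to 0.09, adjusted p = 0.805, edgeR). For each RPKM of Nde1 and Ndel1 together there was 0.339 to 0.367 RPKM of Pafah1b1 in wildtype against 0.297 to 0.315 in DISC1-Δ3 libraries. Pafah1b2 and Pafah1b3, which encode the catalytic subunits of the platelet-activating factor acetylhydrolase that LIS1 joins, rose by 0.22 and 0.20 on the log2 scale (adjusted p = 0.00420 and 0.0438, edgeR). The call of Pafah1b3 was lost under median-of-ratios scaling, in DESeq2, and with either of wildtype replicates 1 and 2 or DISC1-Δ3 replicates 1 and 2 left out (adjusted p = 0.125 to 0.194, edgeR).

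Pde4b (chr4:102087543-102607259, plus strand) encodes a cyclic AMP phosphodiesterase that DISC1 binds. Its RPKM was 17.74, 16.52 and 16.62 in wildtype against 17.67, 18.75 and 18.45 in DISC1-Δ3 libraries, and the groups overlapped. The log2 fold change was 0.04 (95% interval -0.08 to 0.16, adjusted p = 0.591, edgeR). Pde4d, of the same enzyme family, rose, at 2.01 to 2.26 RPKM in wildtype against 2.76 to 3.54 in DISC1-Δ3 libraries (log2 fold change 0.51, SE 0.099, adjusted p = 0.000538, edgeR). Pde4b nevertheless stayed the more abundant, at 7.31 to 8.74 times Pde4d in wildtype and 5.21 to 6.40 times in DISC1-Δ3 libraries. Pde4a read 4.66 to 5.66 RPKM over all libraries and Pde4c at most 0.18, under the filter.

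Fez1 (chr9:36821864-36878924, plus strand) was the most abundant of the 10 genes. It encodes an adaptor that links cargo to kinesin and acts in the outgrowth of neuronal processes. Its RPKM was 84.39, 92.14 and 94.8 in wildtype against 111.93, 119.87 and 118.57 in DISC1-Δ3 libraries, without overlap. The fold was 1.22 (95% interval 1.14 to 1.31, log2 fold change 0.29, SE 0.048, adjusted p = 0.000105, edgeR). Its paralog Fez2 went the other way, from 31.83, 34.44 and 36.8 to 33.34, 32.3 and 30.57 RPKM (log2 fold change -0.18, adjusted p = 0.0407, edgeR), though its groups overlapped in RPKM. The call of Fez2 was lost with library totals alone, in DESeq2 and limma, and without wildtype replicate 2, wildtype replicate 3 or DISC1-Δ3 replicate 3 (adjusted p = 0.0755 to 0.218, edgeR). Fez1 stood at 2.58 to 2.68 times Fez2 in wildtype libraries and at 3.36 to 3.88 times in DISC1-Δ3 libraries.

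Dixdc1, Ccdc88a and Tnik belong to the signalling partners, and none of the 3 passed the threshold. DIXDC1 is a DIX-domain protein of the Wnt pathway, Ccdc88a encodes Girdin, which binds actin and AKT, and TNIK is a kinase that acts with TCF4 on Wnt target genes.

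Dixdc1 (chr9:50662752-50739517, minus strand) was the lowest of the 10 genes in both genotypes. It read 2.55, 2.07 and 2.37 RPKM in wildtype and 2.14, 2.12 and 2.46 in DISC1-Δ3 libraries, from 175 to 224 reads per library. The ranges overlapped, and the log2 fold change was -0.11 (95% interval -0.34 to 0.12, adjusted p = 0.462, edgeR).

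Ccdc88a (chr11:29373658-29510808, plus strand) had the widest spread among the DISC1-Δ3 libraries of the 10 genes relative to its mean. It read 4.77, 5.33 and 4.51 RPKM in wildtype and 3.34, 3.46 and 5.94 in DISC1-Δ3 libraries, so that DISC1-Δ3 replicates 1 and 2 lay below every wildtype library and replicate 3 above. The log2 fold change was -0.30 (95% interval -0.61 to 0.01, adjusted p = 0.118, edgeR). Without DISC1-Δ3 replicate 3 it was -0.62 (adjusted p = 2.40e-07, edgeR). The gene also passed the threshold where genes of low level were kept in the fit, at -0.30 (adjusted p = 0.0268, edgeR). Its paralog Ccdc88c rose from 4.30, 4.51 and 4.36 to 5.77, 5.52 and 6.65 RPKM (log2 fold change 0.37, adjusted p = 0.000804, edgeR). Ccdc88a stood above Ccdc88c in all 3 wildtype libraries, at 1.03 to 1.18 times its RPKM, and below it in all 3 DISC1-Δ3 libraries, at 0.579 to 0.893 times.

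Tnik (chr3:28263214-28675858, plus strand) read 3.9, 4.17 and 3.28 RPKM in wildtype and 3.13, 3.62 and 4.72 in DISC1-Δ3 libraries. Again replicate 3 was the highest DISC1-Δ3 library. The log2 fold change was -0.12 (95% interval -0.38 to 0.13, adjusted p = 0.434, edgeR), and without that library -0.31 (adjusted p = 0.00859, edgeR). Its related kinase Mink1 read 20.6 to 21.58 and 21.8 to 23.14 RPKM, and the ratio of Tnik to Mink1 overlapped between the genotypes.

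**Figure D3:**
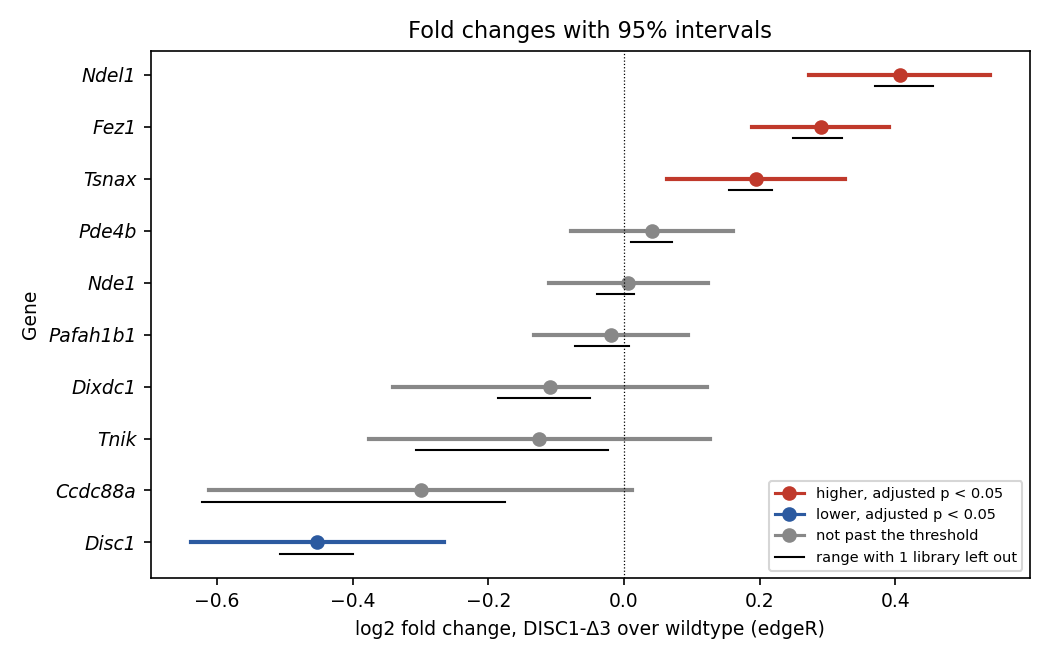
Fitted log2 fold change of each gene, DISC1-Δ3 over wildtype, with its 95% interval (thick line) and the range of the estimate with 1 library left out at a time (thin black line). Red marks genes called higher, blue lower and gray neither, and the thin line of Ccdc88a reaches from -0.62 to -0.18.

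Relative to the mean of DISC1-Δ3 replicates 1 and 2, replicate 3 held 1.72 times as much Ccdc88a and 1.39 times as much Tnik, which placed them at percentiles 98.9 and 95.2 of all tested genes. Disc1 was at 1.10 times and Fez1 at 1.01 times. This deviation moved with transcript length. Its median was -0.05 on the log2 scale for the 2902 genes under 1500 bases and 0.14 for the 1305 genes of at least 6000 bases, among which are Disc1, Ccdc88a and Tnik. With the length trend of each library removed, a setting chosen after the data were seen, Ccdc88a was at -0.25 (adjusted p = 0.0889, edgeR), Tnik at -0.08 and Disc1 at -0.41 (adjusted p = 0.000701, edgeR). Without DISC1-Δ3 replicate 3 the calls among the 10 genes were 3 higher and 3 lower (Disc1, Ccdc88a and Tnik), against 21.2% and 24.0% of all tested genes (45.2% in either direction).

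For 6 pairs, the log2 ratio of both genes within a library was compared between genotypes. The difference was -0.67 for Disc1 over Tsnax, -0.40 for Nde1 over Ndel1, 0.47 for Fez1 over Fez2, -0.47 for Pde4b over Pde4d and -0.69 for Ccdc88a over Ccdc88c. In these 5 pairs the genotypes did not overlap, with an exact two-sided permutation p = 0.1 for each, the smallest that 3 against 3 libraries can give, and 0.12 after Benjamini-Hochberg adjustment. Each of the 5 pairs holds at least 1 gene that was called by itself. Single genes did not overlap in RPKM for 52.0% of all tested genes, and the share for gene pairs in general was not computed. The remaining pair, Tnik over Mink1, differed by -0.09 (exact permutation p = 0.8). No pair could therefore reach a p under 0.05. Without DISC1-Δ3 replicate 3 the differences were -0.69 for Disc1 over Tsnax, -0.43 for Nde1 over Ndel1 and 0.42 for Fez1 over Fez2. They were -0.38 for Pde4b over Pde4d, -0.88 for Ccdc88a over Ccdc88c and -0.22 for Tnik over Mink1.

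Around these genes, a wider list of 61 dynein, centrosome, transport and signalling partners, paralogs and subunits of the LIS1 enzyme complex was examined. Of the listed genes 60 were tested. It held 25 genes that were higher (41.7%) and 5 that were lower (8.33%), against 20.4% and 19.5% of all tested genes, with a median log2 fold change of 0.11. With library totals alone the counts were 36 higher and 1 lower, and in limma 33 and 1. With 1 library left out at a time they were 17 to 27 higher and 2 to 6 lower, with 2 lower without wildtype replicate 1 or 3, and 3 without wildtype replicate 2 or DISC1-Δ3 replicate 2. Many of these genes are also used by neurons, and neuronal markers were higher as well, with a summed RPKM of 408 to 410 in wildtype against 507 to 524 in DISC1-Δ3 libraries. Their part in the values of the list was not tested.

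Of 18 dynein and dynactin genes, which carry cargo toward microtubule minus ends, 9 rose and 1 fell, with a median of 0.12. That is 55.6% called in either direction, against 39.9% of all tested genes. Dync1i1, a dynein intermediate chain, read 1.9, 2.06 and 1.42 RPKM in wildtype and 2.96, 3.28 and 3.68 in DISC1-Δ3 libraries (log2 fold change 0.82, SE 0.16, adjusted p = 0.000432, edgeR). Dynll1, a dynein light chain, read 52.56 to 54.41 and 79.09 to 81.52 RPKM (log2 fold change 0.51, adjusted p = 7.62e-08, edgeR). Neither gene overlapped between the groups, while 35.9% of all tested genes lay without overlap with DISC1-Δ3 above wildtype. Both are named because they were called and changed by 0.5 or more on the log2 scale.

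Of 7 centrosome and cilium partners 1 rose and 1 fell, with a median of -0.00, a share no higher than the 20.4% and 19.5% of all tested genes. The gene that rose, Ccdc141, which encodes a centrosome-associated DISC1 partner of migrating neurons, had the largest change in the wider list, from 1.92, 2.14 and 1.71 to 4.25, 4.08 and 6.66 RPKM (log2 fold change 1.28, SE 0.14, adjusted p = 1.25e-06, edgeR). The highest Ccdc141 value was that of DISC1-Δ3 replicate 3, and DISC1-Δ3 replicates 1 and 2 also lay above every wildtype library. Pericentrin (Pcnt), a scaffold of the centrosome, fell by 0.21 on the log2 scale (adjusted p = 0.0330, edgeR). This call was lost with the length trend removed, at -0.15 (adjusted p = 0.0777, edgeR), with library totals alone, in DESeq2 and limma, and without wildtype replicate 1, wildtype replicate 2 or DISC1-Δ3 replicate 2 (adjusted p = 0.105 to 0.137, edgeR). Here too DISC1-Δ3 replicate 3 mattered, since without it 2 genes rose and 3 fell, with a median of -0.18.

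Of 13 transport and mitochondrial partners 6 rose and 1 fell, so that 53.8% were called, against 39.9% of all tested genes. The microtubule-associated protein gene Map1a rose by 0.40 (adjusted p = 8.97e-06, edgeR) and Immt, which encodes the mitochondrial inner membrane protein mitofilin, by 0.27 (adjusted p = 0.000213, edgeR). Of 13 signalling and synaptic partners 5 rose and the other 8 did not pass the threshold. The share called, 38.5%, was near the 39.9% of all tested genes. All 5 calls were in the higher direction, against 20.4% higher and 19.5% lower among all tested genes. Atf5, a transcription factor that binds DISC1, read 21.25 to 22.17 RPKM in wildtype and 32.46 to 33.73 in DISC1-Δ3 libraries (log2 fold change 0.52, adjusted p = 3.49e-06, edgeR), and Kalrn, a Rac exchange factor, rose by 0.42 (adjusted p = 0.000175, edgeR). Of 9 tested genes listed as paralogs of the 10 genes, 4 rose and 2 fell (66.7% called, against 39.9% of all tested genes). Ccdc88b was at a log2 fold change of -0.50 (adjusted p = 1.23e-05, edgeR). The list includes Pafah1b2 and Pafah1b3, which rose and are subunits of the LIS1 enzyme complex rather than paralogs of Pafah1b1.

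**Figure D4:**
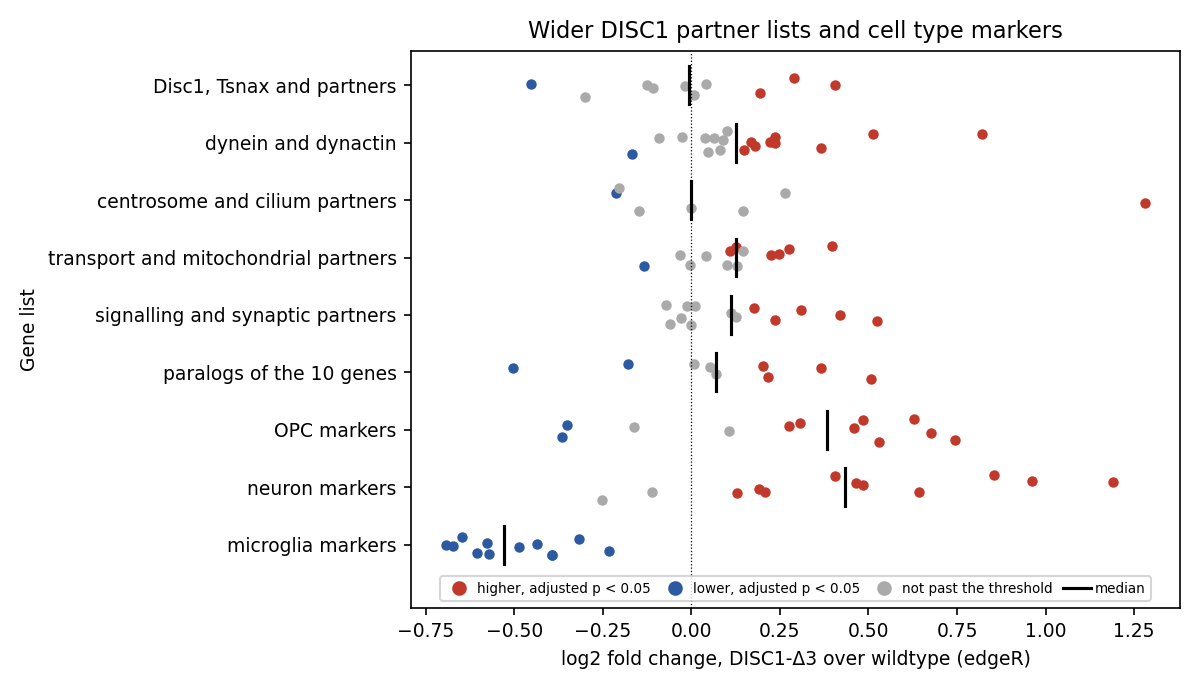
Fitted log2 fold change, DISC1-Δ3 over wildtype, of every tested gene in the 10 genes, the 5 partner lists and 3 marker lists, one point per gene, with the list's median as a black line. Partner lists have medians between -0.00 and 0.13, OPC and neuronal markers lie mostly to the right of 0, and all 12 microglial markers lie to the left.

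Because the floxed allele lies on chromosome 8, the 6 measured genes on each side of Disc1 were also examined. Of the 11 that were tested, 2 were higher and 4 were lower, against 20.4% and 19.5% of all tested genes. Before Disc1, Tsnax and Gnpat (log2 fold change 0.23, adjusted p = 0.00414, edgeR), which encodes an enzyme of ether lipid synthesis, were higher and the other 4 of the 6 did not pass the threshold. Beyond Disc1, 4 of 5 were lower, and Pcnx2 was at 0.32 (adjusted p = 0.116, edgeR).

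The 4 lower genes were Sipa1l2, Map10, Ntpcr and Kcnk1. Ntpcr, a nucleoside triphosphatase gene 464.8 kb beyond Disc1, read 74.83, 79.84 and 82.29 RPKM in wildtype and 60.11, 57.0 and 55.02 in DISC1-Δ3 libraries (log2 fold change -0.55, SE 0.061, adjusted p = 1.08e-06, edgeR). Kcnk1, a potassium channel gene 728.5 kb beyond, read 32.55 to 34.48 and 24.36 to 26.35 RPKM (log2 fold change -0.49, adjusted p = 1.84e-06, edgeR). Map10, at 0.56 to 1.22 RPKM, had a log2 fold change of -0.74 (SE 0.23, adjusted p = 0.0157, edgeR). In these 4 genes, chosen here because they were called lower, the RPKM of the DISC1-Δ3 libraries lay below that of the wildtype libraries, as it did for Disc1 and for 16.1% of all tested genes. The call of Map10 was lost without wildtype replicate 3, at -0.54 (adjusted p = 0.107, edgeR), and in limma, and that of Sipa1l2 with library totals alone, in limma and with the length trend removed.

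**Figure D5:**
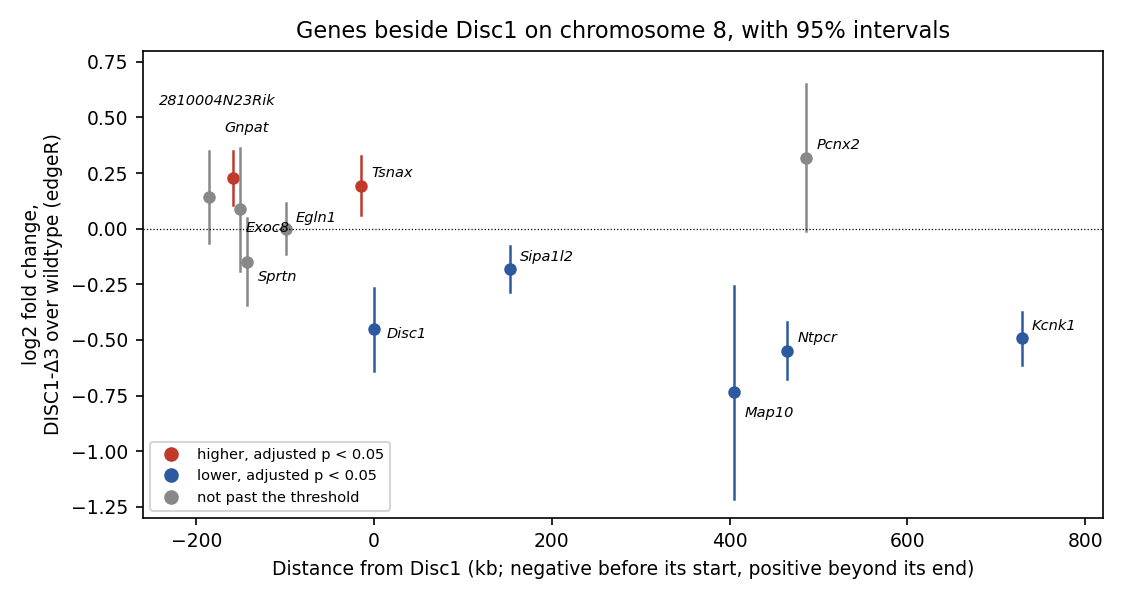
Fitted log2 fold change, DISC1-Δ3 over wildtype, with 95% intervals, of Disc1 and the 11 tested genes beside it, against their distance from Disc1 in kb. The 2 higher genes lie before Disc1, and the 4 lower ones, from -0.18 to -0.74, lie beyond it.

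Among 12663 tested genes with a mean RPKM of at least 1, the 5 whose log2(RPKM + 1) was most like that of Disc1 over the 6 libraries were Fzd4, H2-T22, Chst14, Neu1 and Fam117b, with Pearson's r of 0.989 to 0.996. These r values describe 6 libraries in 2 groups, and so also carry the difference between the groups; 98 genes had an r of at least 0.95. Fzd4, a Wnt receptor, read 1.96, 1.87 and 2.11 RPKM in wildtype and 1.53, 1.26 and 1.58 in DISC1-Δ3 libraries, with wildtype replicate 3 highest and DISC1-Δ3 replicate 2 lowest, as for Disc1.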

How the data were processed

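RNA of 6 OPC libraries, 3 wildtype and 3 DISC1-Δ3, was enriched with oligo(dT) and read as 50-base single ends on a BGISEQ-500. Per the submitters' processing notes, Bowtie2 2.2.5 and the mm10 genome were used; the counting tool and its annotation are not given in the sources used here, and the study's text names DESeq2. The authors deposited an expected count per gene and library, in which reads shared between genes can be divided (90.17% of counts above 0 were whole, as were all 60 of the 10 genes, within 1e-09). They also deposited RPKM, scaled by transcript length and library total.

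Expected counts were rounded and tested with edgeR 4.0.16 (R 4.3.3), quasi-likelihood, TMM scaling, a genotype term and no covariate, for genes that reached an RPKM of 0.5 in 3 or more libraries. Two-sided p-values were corrected over every tested gene (Benjamini-Hochberg), and calls were made at 0.05. Standard errors (SE) were derived from the log2 fold change and the F statistic of the test. The 95% intervals used these and the test's degrees of freedom. Pair ratios used exact permutation tests. RPKM served for levels. The fit was tested on simulated data in which few genes changed, a setting that does not test the scaling between these libraries. Alternatives, including DESeq2 1.42.0 and limma 3.58.1, are described at the close. Library totals ran from 13716631 to 16417232 counts, and the common biological coefficient of variation was 5.45%. Reads carried no molecular identifiers, so copies made by PCR count as separate reads.

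The members and lists were chosen with earlier results of these data known. All 10 genes are named; of other lists, called genes that changed by 0.5 or more on the log2 scale, or else the top 2 called, and genes of a pair, the first 2 markers as examples, and the 5 genes most like Disc1. Kcnk1, Gnpat, Pcnx2, the remaining phosphodiesterases, Tsn, Marf1, Pafah1b2, Pafah1b3, Sipa1l2, Ptprz1, Tnr and Ddx3y were named after their values were seen. Gene models came from GENCODE M21, and neighbours from the RefSeq table of GRCm38.p6, which is mm10, with 18081 of 18211 IDs matched. The printed sequences are those of the annotated Disc1 transcript, divided by its exon lengths, and primers were located in them.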

Additional observations from a re-analysis of the deposited data

How the results depend on the processing

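Disc1, Ndel1 and Fez1 kept their direction and their call under all 15 alternatives, with log2 fold changes of -0.51 to -0.29, 0.37 to 0.49 and 0.25 to 0.37 and adjusted p of 4.27e-05 to 0.0236, 1.96e-06 to 0.000989 and 5.04e-06 to 0.00134 (edgeR, DESeq2 or limma). Tsnax kept its direction and lost its call in 2, as given above. Values near 0 changed sign. Nde1 was at -0.0014 under median-of-ratios scaling and in DESeq2, at -0.0033 with the length trend removed, and at -0.040 to 0.015 with 1 library left out. Pafah1b1 was at 0.064 with library totals alone, at 0.057 and 0.060 in limma on log2(RPKM + 1) and log2(RPKM + 0.1), at 0.0025 with the length trend removed, and at -0.072 to 0.0068 with 1 library left out. Tnik was at 0.0032 and 0.0015 in the same limma fits. The lower calls among the 10 genes were 2 without the filter and 1 to 3 with 1 library left out, the 3 being without DISC1-Δ3 replicate 3. In the wider list the lower calls were 1 with library totals alone, 2 in DESeq2, 1 in each limma fit and 2 to 6 with 1 library left out (2 without wildtype replicate 1 or 3, and 3 without wildtype replicate 2 or DISC1-Δ3 replicate 2), against 5. Over all genes, limma gave 1774 and 1763 lower calls, against 2691 in edgeR. The limma fits and library totals alone carry no TMM scaling, and the limma fits also use log RPKM with a pseudocount. The cause of these and the other changes was not tested.

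The replicate numbers shared by the genotypes showed no clear pairing of the libraries. Same-numbered libraries had correlations of 0.044, 0.026 and -0.029 in their deviations from the group means, and differently numbered ones -0.052 to 0.027. Such correlations cannot show that no pairing exists. With the replicate number as a block, 5429 genes were called, of which 5288 were among the 5498 called without it, and the block changed no call among the 10 genes. Of the other genes named as called, Pafah1b3 and Fez2 lost their calls with the block (adjusted p = 0.0688 and 0.0670, edgeR). Of the 10 genes, depth limits Dixdc1 most, at 175 to 224 reads a library. Some other named genes had fewer, such as Map10 with 31 to 68 and Dync1i1 with 60 to 152.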
